A study of Mus musculus with 6 samples.

Results

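The p53 target genes described here are 10 genes that the transcription factor p53 is known to activate: Cdkn1a, Gadd45a, Btg2, Ccng1, Mdm2, Bbc3, Pmaip1, Bax, Eda2r and Trp53inp1. They were taken as a list by name, chosen with earlier results of these data known. Of the 10, 9 were measured, among 17097 genes in all. Bax had no probe set under its own name in the platform annotation and is not analysed here. Each gene was read from its brightest probe set over the 6 arrays, and its other probe sets served as a check. Expression was measured on 6 Affymetrix arrays, 1 per animal, in remnant liver of C57Bl/6 mice. Of the animals, 3 were DeltaKlf6, with Klf6 deleted in hepatocytes, and 3 were wildtype. All 6 had 70% of the liver removed (partial hepatectomy, PHx) and were killed 12 h later, so that no unoperated liver serves as a baseline here. The sources used here give neither the promoter that drives the deletion nor the age of the animals. Whole liver was assayed, so fewer cells of a type and less RNA per cell cannot be told apart. Cells other than hepatocytes keep an intact Klf6 gene only so far as the deletion is confined to hepatocytes, which is not shown here.

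p53 is a transcription factor that is held at a low level in unstressed cells by the ubiquitin ligase MDM2 and is stabilised by DNA damage and other stress. It then activates genes that stop the cell cycle, repair DNA, remove the cell by apoptosis or, as Mdm2 does, switch p53 off again. In liver after partial hepatectomy, hepatocytes leave quiescence and enter the cell cycle, and p21, the product of Cdkn1a, is a known brake on that entry. Several p53 targets, Btg2 and Cdkn1a among them, also respond to growth factors and stress without p53. KLF6, the factor deleted here, is a zinc-finger protein that binds GC-rich DNA and is known from human cells to activate CDKN1A independently of p53. The comparison addresses whether these genes differ between regenerating livers with and without hepatocyte Klf6.

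The sequences just upstream of the members' starts are shown because they hold, or lack, the letters that p53 and KLF factors are known to bind. From RefSeq's promoter table (GRCm38.p6) 10 windows were taken, for 7 of the 9 measured members. Trp53inp1 had no entry there, and the window of Pmaip1 is not reported here. In each, the 250 bases upstream of the start were searched on both strands, without mismatch unless stated. A p53 site is made of a pair of half-sites of 10 bases each. In the printed windows that hold such a pair, with at most 2 mismatches outside the fixed C and G at the core of each half-site and at most 13 bases between the half-sites, capitals mark the half-sites, including any lone half-site without mismatch. In the other windows printed, capitals mark GGGCGG, the core of the GC box, on either strand. The windows are, in order, Cdkn1a at its upstream start (chr17:29090729-29090978, plus strand), Cdkn1a at its downstream start (chr17:29093519-29093768, plus strand), Ccng1 (chr11:40755287-40755536, minus strand), Gadd45a (chr6:67037408-67037657, minus strand), Btg2 (chr1:134079156-134079405, minus strand) and Eda2r (chrX:97377210-97377459, minus strand).
Cdkn1a, upstream start: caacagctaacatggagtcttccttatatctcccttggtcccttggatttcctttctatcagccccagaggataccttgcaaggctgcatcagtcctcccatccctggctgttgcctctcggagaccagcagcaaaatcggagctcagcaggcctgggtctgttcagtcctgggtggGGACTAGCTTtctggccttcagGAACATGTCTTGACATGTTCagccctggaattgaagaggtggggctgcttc
Cdkn1a, downstream start: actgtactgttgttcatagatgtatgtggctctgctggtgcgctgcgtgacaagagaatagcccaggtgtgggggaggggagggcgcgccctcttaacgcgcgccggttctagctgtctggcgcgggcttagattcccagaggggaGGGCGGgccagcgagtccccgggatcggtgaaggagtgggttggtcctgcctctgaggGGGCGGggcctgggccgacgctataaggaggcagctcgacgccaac
Ccng1: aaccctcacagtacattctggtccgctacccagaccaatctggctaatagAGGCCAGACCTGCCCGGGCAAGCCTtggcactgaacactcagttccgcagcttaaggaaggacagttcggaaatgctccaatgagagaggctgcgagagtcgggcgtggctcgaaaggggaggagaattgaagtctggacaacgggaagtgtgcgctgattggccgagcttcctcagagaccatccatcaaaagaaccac
Gadd45a: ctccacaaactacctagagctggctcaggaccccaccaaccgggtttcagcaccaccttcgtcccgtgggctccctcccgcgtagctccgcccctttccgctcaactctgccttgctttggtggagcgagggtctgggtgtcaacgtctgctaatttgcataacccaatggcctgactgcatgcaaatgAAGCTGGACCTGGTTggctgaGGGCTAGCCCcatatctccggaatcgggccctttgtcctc
Btg2: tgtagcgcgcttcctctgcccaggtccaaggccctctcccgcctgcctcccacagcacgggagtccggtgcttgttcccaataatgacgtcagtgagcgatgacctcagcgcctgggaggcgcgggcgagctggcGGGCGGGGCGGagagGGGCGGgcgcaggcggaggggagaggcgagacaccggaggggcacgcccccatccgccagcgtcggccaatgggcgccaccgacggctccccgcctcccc
Eda2r: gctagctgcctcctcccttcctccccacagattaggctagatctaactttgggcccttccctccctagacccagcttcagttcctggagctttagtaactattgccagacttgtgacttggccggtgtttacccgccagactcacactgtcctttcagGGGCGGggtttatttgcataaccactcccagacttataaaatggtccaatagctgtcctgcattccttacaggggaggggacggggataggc

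A p53 pair was found in 3 of the 10 windows, those of Cdkn1a at the upstream start, Ccng1 and Gadd45a, against 3.34% of the 32851 starts in the table. At the upstream start of Cdkn1a a pair with 12 bases between its half-sites, at positions -73 to -42 from the start, had 0 mismatches. The adjoining half-sites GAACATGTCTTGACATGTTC, at positions -51 to -32 and overlapping that pair, had 1 mismatch. In Ccng1 the adjoining half-sites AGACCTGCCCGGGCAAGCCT, at positions -195 to -176, also had 1 mismatch. In Gadd45a both overlapping pairs had 2 mismatches. The genes were listed as p53 targets, so a p53 site near some of them repeats part of how the list was made. GGGCGG stood in 8 of the 10 windows (32.7% of all starts), at the downstream but not the upstream start of Cdkn1a and not in Ccng1. CACCC, the core of another KLF site, stood in 5 (52.0% of all starts, a motif that can share end bases with GGGCGG), and TATAAA in 1, Eda2r (12.4%). Of the windows not printed, that of Mdm2 had a lone half-site and the 3 of Bbc3 had none. These are matches of letters and do not show binding.

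Klf6, the targeted gene, was not uniformly low in the arrays labelled DeltaKlf6, as the plot of its 3 probe sets shows. On the probe set with the highest signal Klf6 was at 7.03, 4.61 and 3.15 (log2 expression) in the arrays labelled DeltaKlf6 1, 2 and 3, against 5.09, 4.43 and 5.20 in wildtype 1, 2 and 3. The array labelled DeltaKlf6 1 lay above every wildtype array on each of the 3 probe sets. The other arrays labelled DeltaKlf6 were not low throughout: on the second probe set, at 4.12 and 3.74 in DeltaKlf6 2 and 3 against 4.02, 3.73 and 4.44 in wildtype, both lay within the wildtype range. DeltaKlf6 2 also lay above wildtype 2 on the probe set with the highest signal, and both arrays lay below every wildtype array on the remaining one, at 2.82 and 2.83 against 3.61, 4.03 and 3.41. The group mean was higher in DeltaKlf6 on all 3 probe sets, none past the test. From the highest to the lowest signal, the differences were 0.02, 0.52 and 0.13 (SE 0.85, 0.53 and 0.75). Whether the probe sets lie in the deleted part is not known here. Because Klf6 goes against the label in 1 array and is not uniformly low in the other 2, each array below is named by its label only, each direction is between arrays as labelled, and results are also given without the array labelled DeltaKlf6 1. The tissue matched its label: all 8 hepatocyte markers were measured, with mean levels of 12.55, 12.42 and 12.22 in DeltaKlf6 and 12.31, 12.33 and 12.26 in wildtype. Across genes, arrays correlated at 0.946 to 0.964 within DeltaKlf6 and at 0.982 to 0.983 within wildtype. The 3'-minus-5' signal of the Gapdh control, a measure of RNA integrity and labelling, was 3.47, 3.45 and 4.83 in DeltaKlf6 1, 2 and 3, against 4.26, 4.06 and 4.43 in wildtype. The same measure for actin was 4.22, 3.998 and 5.05 in DeltaKlf6, against 5.39, 5.01 and 4.86 in wildtype. DeltaKlf6 1 and 2 lay below the wildtype range on both, and DeltaKlf6 3 lay above it for Gapdh and within it for actin. The 18 probe sets of spiked-in hybridization controls averaged 9.92, 9.86 and 11.22 in DeltaKlf6 and 10.34, 10.16 and 10.33 in wildtype, with DeltaKlf6 3 highest. The upper quartile of all probe sets was 5.53, 5.63 and 5.08 in DeltaKlf6 1, 2 and 3, against 5.50, 5.51 and 5.51 in wildtype. DeltaKlf6 3 was the lowest of the 6 arrays for 25.6% of all genes and the highest for 21.6%. Its median over all probe sets, 3.45, was the highest of the 6, and its upper quartile the lowest. Both its low values and its high values of dim genes below carry that limit.

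**Figure D1:**
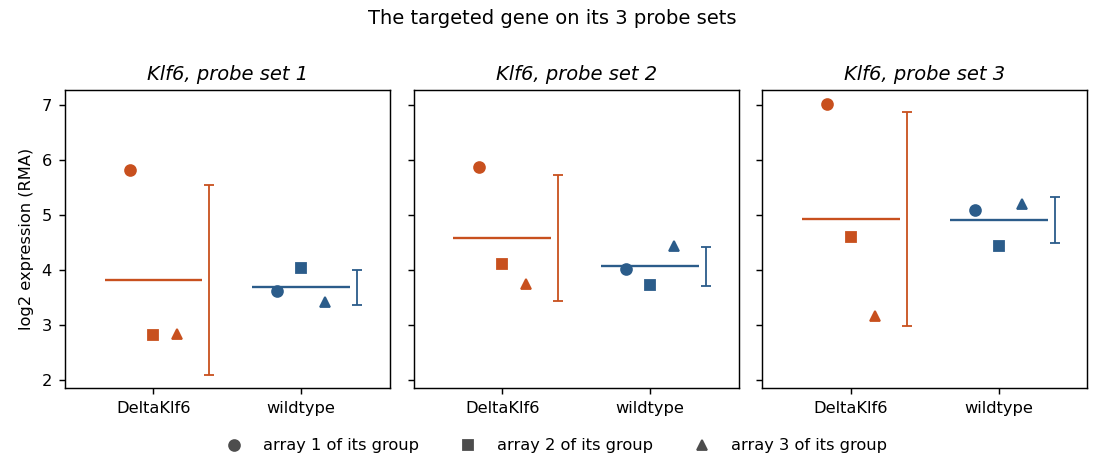
Klf6 on its 3 probe sets, with log2 expression on the vertical axis and the groups on the horizontal axis; points are arrays, horizontal lines group means and bars the SD (n = 3). The array labelled DeltaKlf6 1 sits above all 3 wildtype arrays in each panel.

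All 9 measured p53 targets had a higher mean in DeltaKlf6 than in wildtype, but no gene passed the test, and the height came mostly from the array labelled DeltaKlf6 1. The median difference over the 9 members was 0.63 on the log2 scale, beside -0.01 over all 17097 genes, of which 48.4% were higher. The members were chosen with earlier results of these data known, so this contrast is a description only. By limma with Benjamini-Hochberg adjustment over all genes, 0 members were called at an adjusted p under 0.05, as were 0 of 17097 genes (0%), and each member had an adjusted p of 0.992. At an unadjusted p under 0.05 there was 1 member, Eda2r, beside 631 genes (3.69%). The groups did not overlap for 2 members, Ccng1 and Eda2r, both higher in DeltaKlf6, beside 3.41% of all genes. Without the array labelled DeltaKlf6 1, 6 members were higher and 3 lower, with a median of 0.29 beside -0.02 over all genes. The median was 0.98 without DeltaKlf6 2, 0.62 without DeltaKlf6 3 and 0.38 without wildtype 2, and all 9 members stayed higher in each.

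The array labelled DeltaKlf6 1 held the highest of the 6 values for 7 of the 9 members, while it was highest for 19.3% of all genes. The array labelled DeltaKlf6 3 was highest for the other 2, Bbc3 and Pmaip1 (21.6% of all genes), and DeltaKlf6 2 for 0 (18.4%). Averaged over the members, the deviation from the wildtype mean was 1.44, 0.30 and 0.25 in DeltaKlf6 1, 2 and 3, against -0.12, 0.02 and 0.10 in wildtype 1, 2 and 3. All 3 arrays labelled DeltaKlf6 thus averaged above the wildtype arrays, the first of them by far the most. In DeltaKlf6 3 the members lay on both sides of the wildtype mean. Pmaip1, Eda2r, Bbc3, Gadd45a and Ccng1 were at 1.13, 0.95, 0.59, 0.32 and 0.15 from it. Cdkn1a, Btg2, Trp53inp1 and Mdm2 were at -0.04, -0.10, -0.27 and -0.44. Counted by gene, 8, 6 and 4 of the 9 members lay above every wildtype array in DeltaKlf6 1, 2 and 3, beside 29.0%, 28.0% and 27.2% of all genes. The spread followed: the SD was larger in DeltaKlf6 than in wildtype for 8 members, all but Bbc3 (68.1% of all genes), with a median ratio of SDs of 2.86 for the members and 1.51 for all genes.

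**Figure D2:**
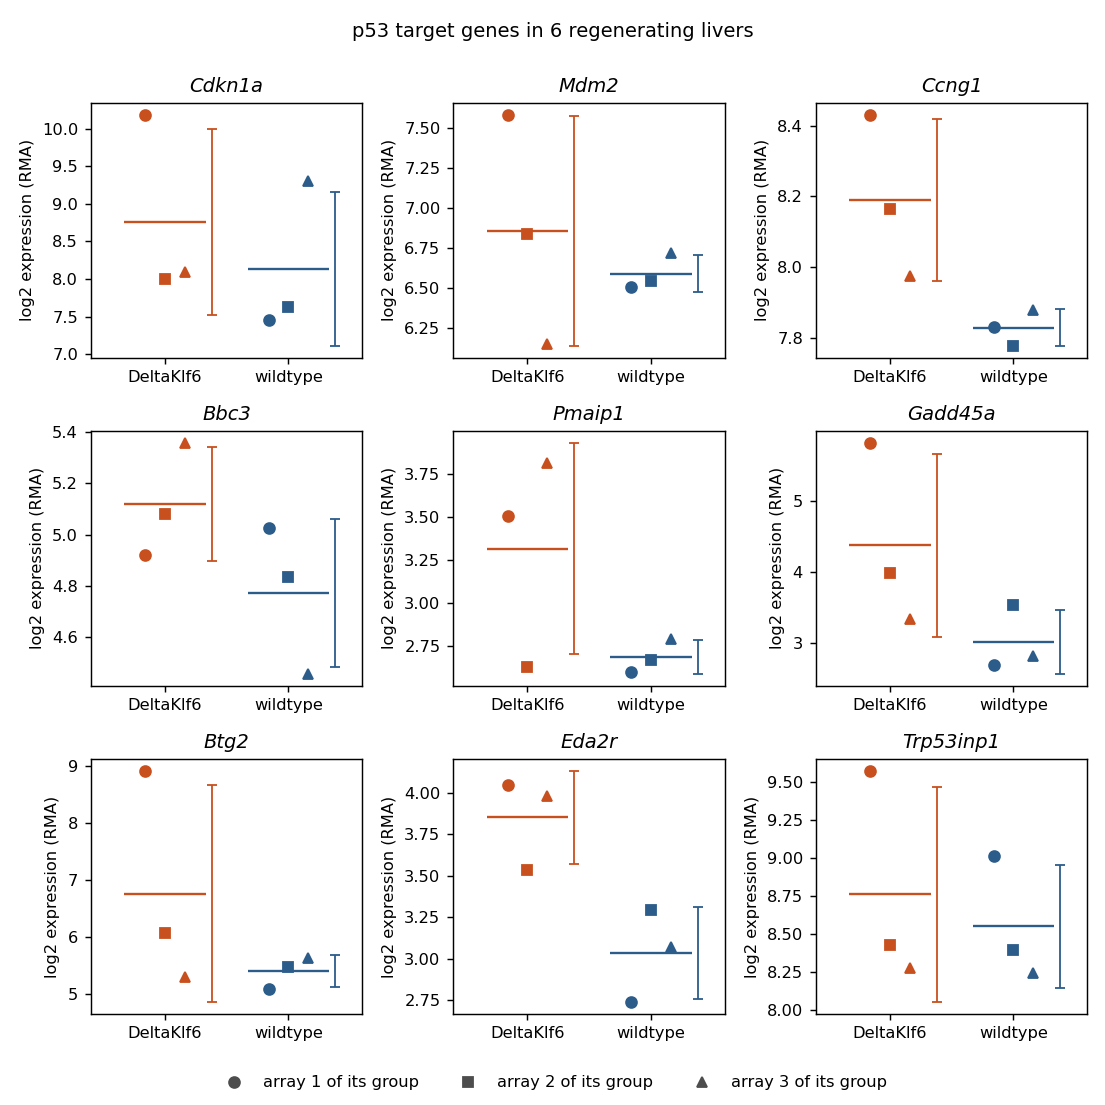
Each of the 9 measured p53 targets, with log2 expression on the vertical axis (scaled per gene) and the groups on the horizontal axis; points are arrays, horizontal lines group means and bars the SD (n = 3). The array labelled DeltaKlf6 1 (circle) is the highest point in 7 panels, and the groups separate for Ccng1 and Eda2r.

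Among the targets that halt growth, Cdkn1a encodes p21, an inhibitor of cyclin-dependent kinases. It was at 10.18, 7.995 and 8.09 in DeltaKlf6 1, 2 and 3, against 7.45, 7.63 and 9.31 in wildtype 1, 2 and 3. The groups overlapped, with 1 high array in each: DeltaKlf6 1 and wildtype 3. The means were 8.76 ± 1.24 in DeltaKlf6 and 8.13 ± 1.02 in wildtype (SD, n = 3 each), a difference of 0.63 (limma, SE 0.69, 95% interval -0.96 to 2.21). Without DeltaKlf6 1 the difference was -0.09, and without wildtype 3 it was 1.21. The other probe set of Cdkn1a gave 7.94, 6.10 and 4.93 in DeltaKlf6 and 4.61, 4.96 and 6.49 in wildtype, with the same 2 arrays highest and a difference of 0.97 (SE 0.77).

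Btg2, which encodes an antiproliferative cofactor of mRNA deadenylation, was at 8.92, 6.08 and 5.30 in DeltaKlf6, against 5.09, 5.48 and 5.63 in wildtype. DeltaKlf6 1 stood 3.52 above the wildtype mean, the widest such gap among the 9 members, while DeltaKlf6 3 lay within the wildtype range. The means were 6.77 ± 1.91 and 5.40 ± 0.28, a difference of 1.37 (SE 0.81, 95% interval -0.51 to 3.24), which was 0.29 without DeltaKlf6 1. On the other probe set of Btg2, at 8.93, 5.88 and 4.76 in DeltaKlf6 against 4.97, 5.38 and 5.77 in wildtype, the difference was 1.15 (SE 0.92). There DeltaKlf6 1 and 2 lay above every wildtype array and DeltaKlf6 3 below every one. Gadd45a, a growth arrest protein induced by DNA damage, was at 5.83, 3.98 and 3.34 in DeltaKlf6, against 2.69, 3.53 and 2.82 in wildtype. Here DeltaKlf6 1 and 2 lay above every wildtype array and DeltaKlf6 3 lay below wildtype 2. The means were 4.38 ± 1.29 and 3.01 ± 0.45, a difference of 1.37 (SE 0.59, 95% interval -0.0005 to 2.74, unadjusted p = 0.0501), which was 0.65 without DeltaKlf6 1. The wildtype mean of Gadd45a lay under 3.36, the median of all probe sets over all arrays, and the authors' table gives no detection calls.

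Ccng1 encodes cyclin G1, which recruits a phosphatase to MDM2. It was at 8.43, 8.16 and 7.97 in DeltaKlf6, against 7.83, 7.78 and 7.88 in wildtype. All 3 DeltaKlf6 values lay above all 3 wildtype values, with a margin that was narrow for DeltaKlf6 3. The means were 8.19 ± 0.23 and 7.83 ± 0.05, a difference of 0.36 (SE 0.21, 95% interval -0.12 to 0.85), or 1.29-fold, and 0.24 without DeltaKlf6 1. The other 2 probe sets of Ccng1 differed by 0.10 and 0.02, and on both of them the groups overlapped. The separation of the groups therefore rests on 1 of 3 probe sets, and it was absent with arrays centred on their median.

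Mdm2, which encodes the ubiquitin ligase that degrades p53, was at 7.58, 6.84 and 6.15 in DeltaKlf6, against 6.51, 6.54 and 6.72 in wildtype. DeltaKlf6 1 and 2 lay above the wildtype range and DeltaKlf6 3 below it, so that the arrays of 1 label stood on both sides. The means were 6.86 ± 0.72 and 6.59 ± 0.11, a difference of 0.27 (SE 0.35, 95% interval -0.55 to 1.08), and of -0.10 without DeltaKlf6 1. With a further quantile normalization the difference was 0.36. The other probe set differed by -0.02, at 5.26, 5.02 and 3.49 in DeltaKlf6 against 4.24, 4.41 and 5.20 in wildtype. It was the 1 probe set of 15 belonging to the members with a lower mean in DeltaKlf6.

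Among the members that act in apoptosis, Bbc3 encodes PUMA, which binds and blocks survival proteins of the BCL2 family. It was at 4.92, 5.08 and 5.36 in DeltaKlf6, against 5.03, 4.83 and 4.46 in wildtype. DeltaKlf6 1 was the lowest of its group and lay below wildtype 1, whereas it was the highest of all arrays for 7 other members. The means were 5.12 ± 0.22 and 4.77 ± 0.29, a difference of 0.35 (SE 0.24, 95% interval -0.21 to 0.90). Pmaip1 encodes NOXA, a protein of the same kind. It was at 3.51, 2.63 and 3.81 in DeltaKlf6, against 2.59, 2.66 and 2.79 in wildtype. DeltaKlf6 1 and 3 lay above the wildtype range and DeltaKlf6 2 within it. The means were 3.32 ± 0.62 and 2.68 ± 0.10, a difference of 0.63 (SE 0.32, 95% interval -0.10 to 1.37). The mean over the 6 arrays was under the median of all probe sets for Pmaip1, alone among the 9 members. Without DeltaKlf6 1 the differences were 0.45 for Bbc3 and 0.54 for Pmaip1.

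Eda2r encodes a receptor of the TNF receptor family that binds the ligand ectodysplasin A2. It was at 4.05, 3.53 and 3.98 in DeltaKlf6, against 2.74, 3.29 and 3.07 in wildtype. All 3 DeltaKlf6 values lay above all 3 wildtype values, and no single array carried the gap. The means were 3.85 ± 0.28 and 3.03 ± 0.28, a difference of 0.82 (SE 0.25, 95% interval 0.25 to 1.39), or 1.76-fold. Its unadjusted p by limma was 0.0108, the smallest among the members, and its adjusted p of 0.992 did not pass. Without DeltaKlf6 1 the difference was 0.72. Eda2r has 1 probe set, and its wildtype mean lay under the median of all probe sets, where detection is not known.

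Trp53inp1, whose product acts in the nucleus with p53 and in autophagy, was at 9.57, 8.43 and 8.28 in DeltaKlf6, against 9.01, 8.40 and 8.25 in wildtype. Array 1 was the highest in both groups, and the other 2 arrays of each group lay close together. The means were 8.76 ± 0.71 and 8.55 ± 0.40, a difference of 0.21 (SE 0.38, 95% interval -0.68 to 1.09), and of -0.20 without DeltaKlf6 1. The other probe set differed by 0.27 (SE 0.25). Over all 15 probe sets of the members, DeltaKlf6 1 was the highest of the 6 arrays on 13, including every probe set of the 5 genes that have more than 1. It lay above all 3 wildtype arrays on 14, the exception being Bbc3.

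**Figure D3:**
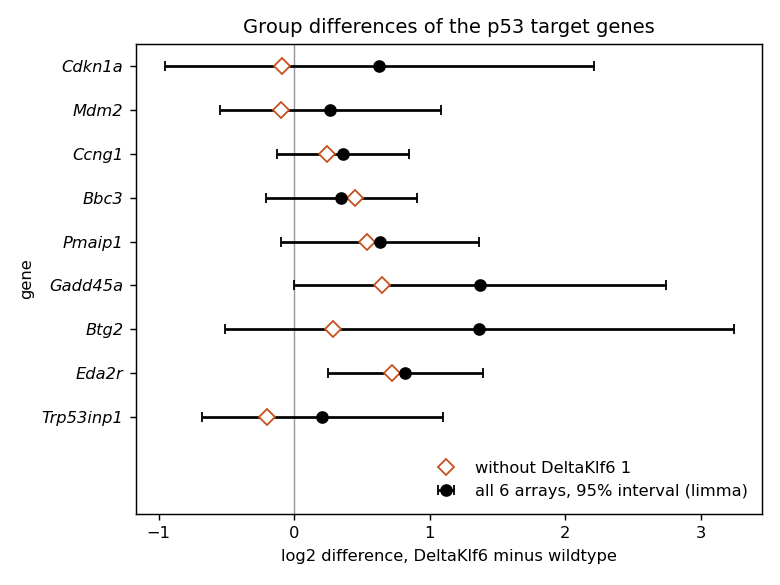
Log2 difference, DeltaKlf6 minus wildtype, for each member (horizontal axis; genes down the page), with the 95% interval from limma over all 6 arrays (black) and the difference without the array labelled DeltaKlf6 1 (open diamonds). The interval lies above 0 for Eda2r alone, and the diamonds of Cdkn1a, Mdm2 and Trp53inp1 lie below 0.

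The other targets of p53 lay on both sides of 0. Of 26 such genes 25 were measured: 12 were higher and 13 lower, with a median difference of -0.03 and 0 called (lowest adjusted p 0.992). The groups did not overlap for 2 on the lower side (5.91% of all genes) and for 1 on the higher side (3.41% of all genes). The higher 1 was Rprm, which was named after its values were seen. It was at 2.29, 2.36 and 2.93 in DeltaKlf6 against 2.13, 2.26 and 2.06 in wildtype. Each of these values lay under 3.36, the median of all probe sets over all arrays, where detection is not known. The lower 2 act in DNA repair and synthesis. Ddb2, a sensor of ultraviolet damage, was at 5.06, 5.63 and 6.01 in DeltaKlf6, against 6.25, 6.16 and 6.25 in wildtype (difference -0.65, SE 0.27, unadjusted p = 0.0429). Rrm2b, a subunit of the enzyme that makes deoxyribonucleotides, was at 4.95, 4.52 and 4.78 in DeltaKlf6, against 5.08, 5.16 and 5.95 in wildtype (-0.65, SE 0.29). Dcxr, a carbonyl and sugar reductase, had the smallest unadjusted p of the list, 0.0168, and was at 9.30, 9.22 and 8.54 in DeltaKlf6, against 7.72, 8.57 and 7.96 in wildtype (0.94, SE 0.31). None of these passed adjustment.

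Set out by array, DeltaKlf6 1 was the highest of the 6 arrays for 12 of the 25 other targets, beside 19.3% of all genes. The mean deviation of the list from wildtype was 0.29, -0.05 and -0.18 in DeltaKlf6 1, 2 and 3, against -0.07, 0.01 and 0.06 in wildtype 1, 2 and 3. DeltaKlf6 1 lay above the wildtype arrays and DeltaKlf6 3 below them, where the members averaged 1.44 and 0.25 in the same arrays. Phlda3, which encodes an inhibitor of AKT signalling and was named after its values were seen, was at 6.23, 4.93 and 4.54 in DeltaKlf6, against 4.16, 4.92 and 4.63 in wildtype.

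Relatives and regulators of p53 also lay on both sides of 0. Trp53, which encodes p53 itself, had no probe set under its own name and is not analysed here. Of 19 listed genes 14 were measured, 8 higher and 6 lower, with a median difference of 0.09 and 0 called. Mdm4, a partner of MDM2 that restrains p53, was at 5.87, 6.47 and 5.44 in DeltaKlf6 against 6.64, 6.33 and 6.36 in wildtype (-0.52, SE 0.29). Trp53bp1, a DNA damage adaptor, did not overlap between the groups, at 7.16, 7.41 and 7.49 in DeltaKlf6 against 8.09, 7.51 and 7.70 in wildtype (-0.41, SE 0.23). The margin between DeltaKlf6 3 and wildtype 2 was narrow. It was the 1 gene of the 14 without overlap, on the lower side, beside 5.91% of all genes. Hipk2, a kinase that phosphorylates p53, differed by -0.69 (SE 0.40). DeltaKlf6 1 was highest for 1 of the 14.

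Close family relatives of the members, which share their protein families, split evenly. All 10 were measured, 5 higher and 5 lower, with a median difference of -0.02 and 0 called, and DeltaKlf6 1 was highest for 5. Gadd45g was at 9.86, 7.79 and 9.20 in DeltaKlf6 against 7.84, 8.85 and 8.28 in wildtype (0.63, SE 0.52), with DeltaKlf6 2 the lowest of the 6. Trp53inp2 and Ccng2 differed by -0.62 (SE 0.41) and -0.26 (SE 0.23). Among 13 genes of the BCL2 family outside the members, 4 were higher and 9 lower (median -0.23), with 0 called and 1 at an unadjusted p under 0.05. That gene was Bik, a killer protein with the same binding domain as PUMA and NOXA, at 6.30, 6.21 and 7.34 in DeltaKlf6 against 7.56, 7.00 and 7.85 in wildtype (-0.85, SE 0.36, unadjusted p = 0.0475). The survival gene Bcl2l2 differed by -0.63 (SE 0.30) and the pore-forming Bak1, a relative of BAX, by -0.39 (SE 0.29).

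**Figure D4:**
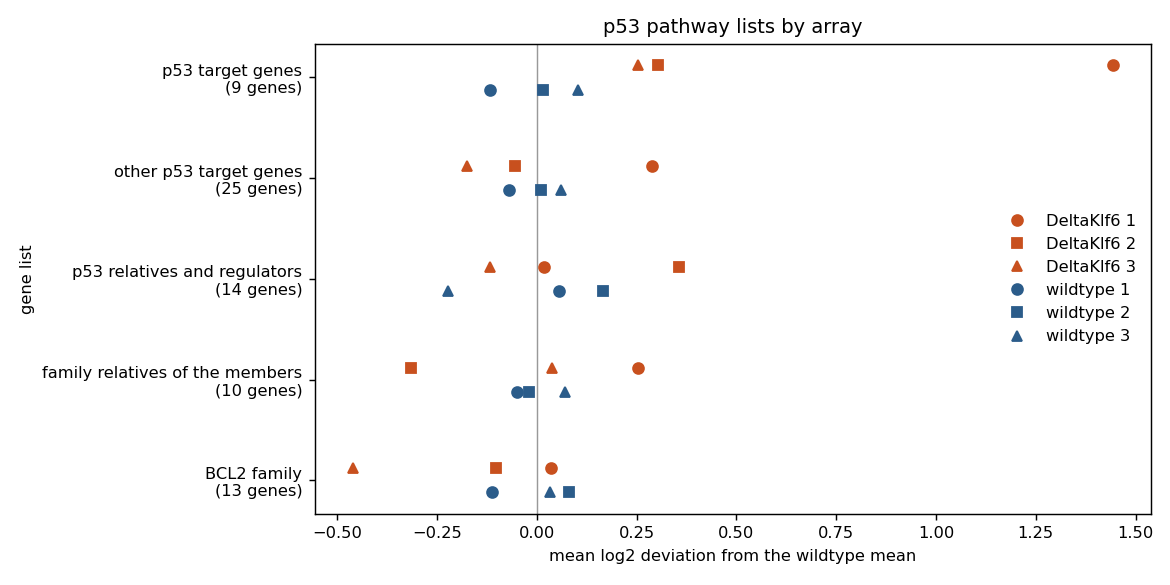
Mean log2 deviation from the wildtype mean (horizontal axis) of 5 gene lists (down the page) in each array, with DeltaKlf6 drawn above wildtype in each list. For the p53 target genes DeltaKlf6 1 sits at 1.44 and the other 5 arrays between -0.12 and 0.30.

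The array labelled DeltaKlf6 1 was set beside markers of the cell types that whole liver holds. In that array the mean deviation from wildtype was 0.25 for 8 hepatocyte markers, where wildtype arrays ranged from -0.04 to 0.03. Of these, Tat, an enzyme of tyrosine breakdown, was at 1.47 and the other 7 lay between -0.29 and 0.36. It was 0.18 for 8 Kupffer cell and macrophage markers (wildtype -0.29 to 0.18), 0.06 for 8 of sinusoidal endothelium (-0.14 to 0.12) and 0.11 for 8 of stellate cells and fibroblasts (-0.14 to 0.15). It was 0.37 for 5 of 6 cholangiocyte markers (-0.26 to 0.34), -0.15 for 5 of 6 neutrophil markers (-0.33 to 0.26), -0.14 for 7 of 8 lymphocyte markers (-0.04 to 0.04) and 0.17 for 3 of 5 erythroid markers (-0.03 to 0.03), with Hba-a1 at 0.72 and Slc4a1 at -0.32. Each of these list means was smaller in size than the 1.44 of the p53 targets, though Tat alone stood at 1.47. In this array the list means of hepatocyte, cholangiocyte and erythroid markers, and Klf6, lay above the wildtype range, as the members did on average. The lymphocyte list mean and the Gapdh and actin measures lay below it. Single lymphocyte markers ran from -0.72 for Cd3g to 0.11 for Nkg7. In DeltaKlf6 2 and 3 the erythroid mean was 0.25 and 0.21 and the lymphocyte mean -0.21 and -0.04. There the hepatocyte mean was 0.12 and -0.08 and the cholangiocyte mean -0.03 and 0.17. The part of these deviations in the result was not tested. In DeltaKlf6 2 the Gapdh and actin measures were 3.45 and 3.998, and the members averaged 0.30 above wildtype. How these relate was not tested.

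The pattern of Cdkn1a over the 6 arrays was compared with that of every other gene by the root mean square difference of log2 values, each gene centred on its own mean. Outside the members the 5 nearest genes were Gstt3, a glutathione transferase (0.32), Mrap, an accessory protein of melanocortin receptors (0.34), Cd28, a costimulatory receptor of T cells (0.37), Khdc4, an RNA-binding protein (0.37), and Arl2bp, a binding partner of the small GTPase ARL2 (0.37). Gstt3 was at 8.15, 6.67 and 6.44 in DeltaKlf6 against 5.73, 6.49 and 7.33 in wildtype. Like Cdkn1a, it was highest in DeltaKlf6 1 and next highest in wildtype 3. Among the members Mdm2 was nearest to Cdkn1a (0.69, place 374 of 17096) and Bbc3 farthest (1.12, place 12417). With 6 arrays and 17096 genes some profiles lie close by number alone, so these are descriptions.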

How the data were processed

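Per the submitters' processing notes, the authors made the deposited values with RMA in Affymetrix Expression Console 1.2.1. The deposited values are taken as log2 expression; the base is inferred, since the highest value, 13.9, fits a scanner's range on no other common log scale. The table had 45141 probe sets in 6 columns, 28898 of them with 1 gene in the platform annotation. Looking up Entrez numbers in RefSeq changed 0 symbols. Each of 17097 genes was represented by its brightest probe set. Groups came from the sample titles.

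The difference DeltaKlf6 minus wildtype was fitted on genotype alone by lmFit and eBayes of limma 3.58.1 (R 4.3.3), two-sided, with Benjamini-Hochberg adjustment over all genes and a threshold of 0.05. SE, 95% intervals and p-values come from that fit; the number of arrays, 3 per group, limits their precision. The calculation was tested on simulated data. The members and lists were chosen with earlier results of these data known. The text names every member, Klf6, the 3 genes of smallest unadjusted p in each pathway list and the 5 genes nearest Cdkn1a; others are marked. Alternatives changed the probe set rule, filter, normalization, variance model, weights, block and arrays used.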

Additional observations from a re-analysis of the deposited data

How the results depend on the processing

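Under each of 16 alternatives limma called 0 genes and 0 members (lowest adjusted p of a member 0.445, without DeltaKlf6 3). With the replicate number as a block (replicate block) the count of called genes was also 0 and each member's difference was as before, with 703 genes at an unadjusted p under 0.05. Same-numbered arrays did not deviate together in every pair (correlations across genes -0.005, 0.26 and 0.08), though 0.26 was the highest between any arrays of the groups. DeltaKlf6 1 correlated best with wildtype 3, at 0.07. With 3 arrays per group these values cannot decide whether same-numbered samples belong together, and the labels state no pairing. Genes at an unadjusted p under 0.05 numbered 1546 without DeltaKlf6 3 and 1165 without DeltaKlf6 2, 909 with array weights, 1066 of 28898 with every probe set tested, 401 with dim genes left out, and 379 to 700 without each other array. The median difference of the members was 0.29 to 0.98 without each array in turn and 0.48 to 0.64 under the other alternatives. The number of members higher without overlap was 1, Eda2r, with the mean of the probe sets of a gene (3.62% of all genes) and 1, Eda2r, with arrays centred on their median (3.01%), where Ccng1 overlapped in both. It was 3 with a further quantile normalization (4.46%), where Btg2 was added, 5 without DeltaKlf6 3 (12.6%), and 3 without each other array (6.30% to 8.58%). Of 143 differences of single members under the alternatives, 140 kept their sign and 3 reversed, each without DeltaKlf6 1. These were Cdkn1a at -0.0879, Mdm2 and Trp53inp1. The variance trend, robust variances, replicate block and separate testing of probe sets left each difference unchanged, so they could not reverse a sign. Leaving out dim genes, or probe sets with the suffix _x_at or _s_at, also changed no difference of a tested member. Leaving out each array, Cdkn1a ranged from -0.09 to 1.21, Mdm2 from -0.10 to 0.62 and Trp53inp1 from -0.20 to 0.45. With dim genes left out Pmaip1 was not tested. The authors' table has no signal over background per probe set, so how far Pmaip1, Eda2r and Gadd45a rise over it is not known here.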
